A study of Mus musculus with 4 samples.

Results

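The genes described are 10 chemokines measured in mouse liver after hepatectomy: Ccl2, Ccl7, Ccl4, Ccl5, Ccl9, Cxcl1, Cxcl2, Cxcl9, Cxcl10 and Cxcl16. They were taken by a fixed list of symbols, which was chosen with earlier results of these data known. All 10 were found among the 24421 mouse gene symbols of the deposited table. RNA came from livers of mice that had undergone hepatectomy, the surgical removal of part of the liver. The gelADSC group, 2 libraries, was given ADSC (stem cells derived from adipose tissue) in a fibrin gel, and the control group, 2 libraries, was given the same gel without cells. Hepatectomy and gel are therefore common to all 4 libraries. The strain, age and sex of the mice, the time after surgery, and the source and species of the ADSC are unknown from the labels used. Separate animals behind the libraries of a group are not stated either, so the p-values measure only the spread between these libraries, which may be technical.

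Chemokines are small secreted proteins that direct the movement of leukocytes through G protein-coupled receptors. CC chemokines carry adjacent cysteines near the amino terminus, while in CXC chemokines another residue separates them. Ccl2 and Ccl7 attract monocytes through the receptor Ccr2, Cxcl1 and Cxcl2 attract neutrophils through Cxcr2, and Cxcl9 and Cxcl10 attract activated T cells and NK cells through Cxcr3. In the liver they are made by hepatocytes, Kupffer cells (the resident macrophages), endothelium, stellate cells and infiltrating leukocytes, and many of them are induced through the transcription factor NF-kB or by interferons.

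Values are FPKM, fragments per kilobase of gene scaled to the mapped fragments of the library, and levels were compared between genes only on this per-length scale. A log2 change is the difference in mean log2(FPKM + 1), gelADSC minus control, with its standard error (SE), and a gene was called at a limma adjusted p under 0.05. The values were whole multiples of a step per gene, which gave the reads behind them, and the libraries held about 18100000 to 24400000 reads. Hepatocyte markers were the most abundant of the marker lists, with Alb (albumin) between 22023 and 38330 FPKM. The median log2 change over the 11070 tested genes was -0.25. Of the called genes 28.3% were higher in gelADSC, against 50.1% with median ratio scaling, which removes that shift.

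Ccl2 and Ccl7, which bind Ccr2, and Cxcl1 and Cxcl2, which bind Cxcr2, were lower in gelADSC livers, while Ccl5 was higher. Of the 9 chemokines that reached a mean of 1 FPKM and were tested, 4 fell (Ccl2, Ccl7, Cxcl1 and Cxcl2) and 1 rose (Ccl5), and 4 were not called (Cxcl9, Cxcl10, Cxcl16 and Ccl9). Over all tested genes 17.5% were called lower and 6.92% higher, 24.4% in either direction. Ccl4 stayed below the filter and was not tested. The median log2 change of the 9 was -0.49, which is -0.24 after subtraction of the median over all tested genes. In whole tissue a smaller number of cells of a type and less RNA per cell cannot be told apart, and this holds for every value given here.

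**Figure D1:**
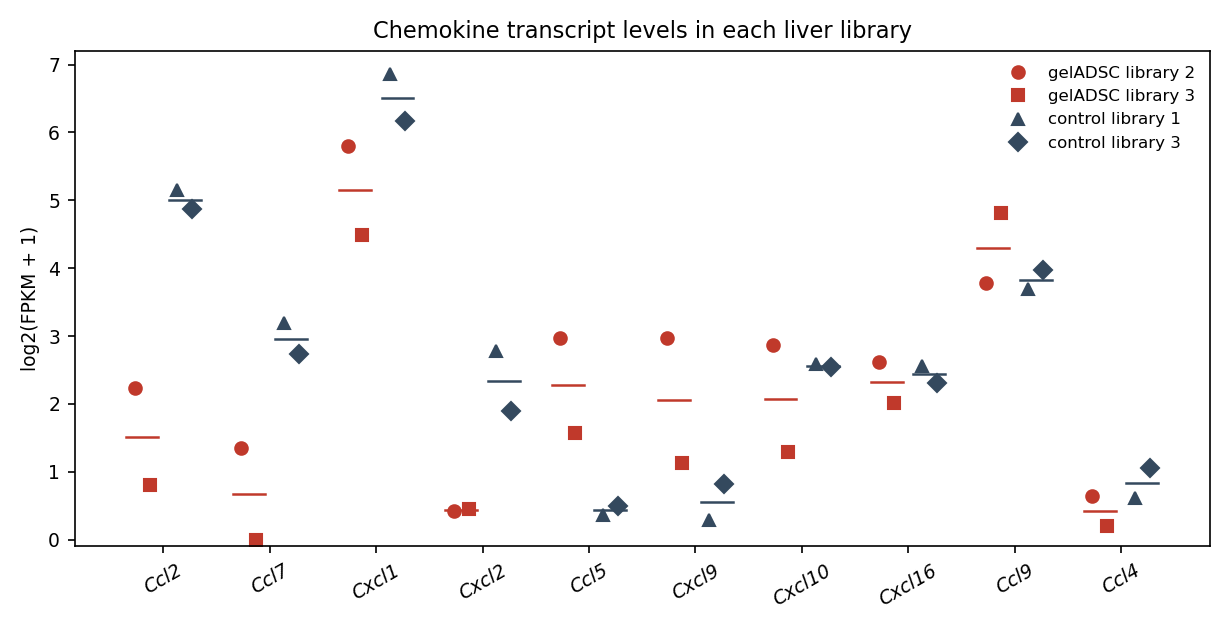
Level of each of the 10 chemokines as log2(FPKM + 1) on the vertical axis, with the gelADSC libraries in red left of the control libraries in dark blue; points are single libraries and short lines are group means. Both gelADSC points lie below both control points for Ccl2, Ccl7, Cxcl1 and Cxcl2 and above them for Ccl5 and Cxcl9.

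Ccl2, the main monocyte attractant among the CC chemokines, fell the most on the log2(FPKM + 1) scale. By voom on the recovered reads the log2 change was -4.15 for Ccl2 and -4.84 for Ccl7. Ccl2 had 3.71 FPKM in gelADSC library 2 (73 reads) and 0.739 FPKM in gelADSC library 3 (12 reads), against 34.4 and 28.3 FPKM (552 and 413 reads) in control libraries 1 and 3. The groups lay far apart, and the gelADSC libraries also differed from each other. The mean was 2.23 ± 2.1 FPKM in gelADSC and 31.3 ± 4.29 FPKM in control (SD, n = 2 each), 14.1-fold lower, with a log2 change of -3.49 (SE 0.40, limma adjusted p = 0.000936). Without control library 1 the adjusted p was 0.0569, with a log2 change of -3.36.

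Ccl7, which shares the receptor Ccr2 with Ccl2, had 1.54 FPKM (30 reads) and 0 FPKM in gelADSC libraries 2 and 3. The control libraries 1 and 3 had 8.10 and 5.67 FPKM, from 129 and 82 reads. The groups did not overlap, and a floor of 3 reads puts the 0 in gelADSC library 3 at up to 0.186 FPKM. The log2 change was -2.29 (SE 0.40, limma adjusted p = 0.00579), and the adjusted p was 0.125 when control library 1 was left out, 0.0554 after median ratio scaling and 0.0631 if no filter was applied. Summed with Ccl12, another ligand of Ccr2, the Ccr2 ligands reached 5.63 and 0.739 FPKM in gelADSC libraries 2 and 3, against 43.5 and 34.6 FPKM in control libraries 1 and 3. Ccl12 itself was below the filter and was not called when no filter was applied (adjusted p = 0.124).

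Cxcl1 and Cxcl2 are neutrophil attractants encoded close together on mouse chromosome 5. Their promoters are shown because both transcripts fell, and because both windows hold the same match to the NF-kB consensus. The windows run from 250 bases before to 50 bases after the start of the gene on the plus strand (RefSeq, GRCm38.p6), at chr5:90890995-90891294 for Cxcl1 and chr5:90903649-90903948 for Cxcl2, and capitals mark the match.
Cxcl1: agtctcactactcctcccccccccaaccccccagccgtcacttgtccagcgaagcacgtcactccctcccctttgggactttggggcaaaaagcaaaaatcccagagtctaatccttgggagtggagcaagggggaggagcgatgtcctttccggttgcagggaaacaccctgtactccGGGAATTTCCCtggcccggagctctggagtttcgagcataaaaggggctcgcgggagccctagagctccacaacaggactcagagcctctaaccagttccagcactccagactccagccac
Cxcl2: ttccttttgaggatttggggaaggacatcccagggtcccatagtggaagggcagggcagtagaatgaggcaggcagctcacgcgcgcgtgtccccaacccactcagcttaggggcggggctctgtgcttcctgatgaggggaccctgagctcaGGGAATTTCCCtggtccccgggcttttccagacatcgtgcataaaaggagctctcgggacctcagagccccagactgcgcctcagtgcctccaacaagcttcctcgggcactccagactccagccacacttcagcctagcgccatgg
Counted from the start of the gene, the match spans -71 to -61 in Cxcl1 and -97 to -87 in Cxcl2, and in each it is read on both strands, shifted by 1 base. In this search, on either strand, 8.46% of 32851 RefSeq promoter windows of 300 bases held the NF-kB consensus. A match describes letters in a window and does not show binding.

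Cxcl1 was the most abundant of the 10 chemokines in 3 of the 4 libraries. It had 54.9 and 21.4 FPKM in gelADSC libraries 2 and 3, against 115 and 70.7 FPKM in control libraries 1 and 3. All gelADSC values lay below the control values, but gelADSC library 2 was closer to control library 3 than to gelADSC library 3. The mean was 38.2 ± 23.6 FPKM in gelADSC and 92.9 ± 31.4 FPKM in control (SD, n = 2 each), 2.44-fold lower, with a log2 change of -1.37 (SE 0.40, limma adjusted p = 0.0409). This call was the least stable of the group: the adjusted p was 0.329 and 0.0901 when control library 1 or 3 was left out, 0.0842 when gelADSC library 3 was left out, 0.194 after median ratio scaling, 0.169 after quantile normalization, 0.155 if no filter was applied and 0.0510 for a pseudocount of 5. Without gelADSC library 3 the log2 change was -0.71.

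Cxcl2 was low and even in gelADSC, with 0.341 FPKM (9 reads) in library 2 and 0.367 FPKM (8 reads) in library 3. Control libraries 1 and 3 had 5.88 and 2.70 FPKM, from 127 and 53 reads. The groups did not overlap, and here the larger spread lay between the control libraries. The mean was 0.354 ± 0.0184 FPKM in gelADSC and 4.29 ± 2.25 FPKM in control (SD, n = 2 each), 12.1-fold lower, with a log2 change of -1.90 (SE 0.31, limma adjusted p = 0.00394). By counting error alone the 8 reads of gelADSC library 3 allow 0.158 to 0.722 FPKM (exact Poisson interval at 95%). Cxcl2 was called under all 10 alternatives, with adjusted p-values up to 0.0448. Further Cxcr2 ligands, Cxcl3, Cxcl5 and Ppbp, were below the filter. Cxcl3 was listed at 0 in both gelADSC libraries and at 0.789 and 0.597 FPKM in control libraries 1 and 3, and with no filter it was called lower (adjusted p = 0.0183). Cxcl5 had 0.0742 and 0 FPKM in gelADSC, against 0.909 and 0.367 FPKM in control, and was not called with no filter (adjusted p = 0.0875). Ppbp, a platelet chemokine, had 1.14 and 0.230 FPKM in gelADSC, against 0.604 and 0.153 FPKM in control, so that its groups overlapped, and it was not called with no filter (log2 change 0.25, adjusted p = 0.638).

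Cxcl9 and Cxcl10 are induced by interferon gamma and bind Cxcr3. Their promoter windows are shown because the genes lie close together. The windows are on the minus strand of chromosome 5, at chr5:92328030-92328329 for Cxcl9 and chr5:92348840-92349139 for Cxcl10 (RefSeq, GRCm38.p6). Neither transcript was called, and a difference between the changes of Cxcl9 and Cxcl10 was not tested. Capitals mark matches to the NF-kB consensus, to the interferon-stimulated response element core GAAANNGAAA, to the gamma-activated sequence TTCNNNGAA and to the AP-1 element TGANTCA, each searched on both strands.
Cxcl9: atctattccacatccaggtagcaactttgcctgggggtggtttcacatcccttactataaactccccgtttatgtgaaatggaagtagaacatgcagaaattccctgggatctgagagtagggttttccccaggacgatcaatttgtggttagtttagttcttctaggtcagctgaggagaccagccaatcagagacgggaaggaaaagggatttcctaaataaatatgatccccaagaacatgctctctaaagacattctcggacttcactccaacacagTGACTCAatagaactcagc
Cxcl10: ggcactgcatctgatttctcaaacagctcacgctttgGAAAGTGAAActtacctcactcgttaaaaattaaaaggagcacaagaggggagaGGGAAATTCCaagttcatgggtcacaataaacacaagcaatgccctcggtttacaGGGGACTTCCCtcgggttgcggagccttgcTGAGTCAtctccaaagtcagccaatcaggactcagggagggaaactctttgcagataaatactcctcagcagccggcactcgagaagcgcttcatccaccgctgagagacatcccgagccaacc
In Cxcl10 the response element core spans -213 to -204, NF-kB matches span -159 to -150 and -104 to -94, and an AP-1 match spans -74 to -68. In Cxcl9 the marked letters are an AP-1 match at 32 to 38. The response element core was found in 3.44% of all windows, the gamma-activated sequence in 8.30% and the AP-1 element in 7.81%. No match to the gamma-activated sequence lay in the 5 windows found, which are those of Ccl9, Cxcl1, Cxcl2, Cxcl9 and Cxcl10. In Ccl9 an NF-kB match spanned -35 to -26, so that 4 of the 5 windows held that consensus. Ccl2, Ccl7, Ccl4, Ccl5 and Cxcl16 had no window in the table used.

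Cxcl9 had 6.81 FPKM (483 reads) and 1.2 FPKM (70 reads) in gelADSC libraries 2 and 3, against 0.225 and 0.760 FPKM (13 and 40 reads) in control libraries 1 and 3. Both gelADSC values lay above both control values, and most of the difference came from gelADSC library 2. The mean was 4.0 ± 3.97 FPKM in gelADSC and 0.492 ± 0.379 FPKM in control (SD, n = 2 each), 8.13-fold apart, and the log2 change of 1.5 (SE 0.51, 95% interval 0.32 to 2.67) was not called (limma adjusted p = 0.0648). It was called with a pseudocount of 0.1 (0.0439), by voom on the recovered reads (0.0492) and without gelADSC library 3 (1.17e-13), a fit in which the remaining gelADSC library is assumed to vary like the control libraries.

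Cxcl10 had 6.30 and 1.44 FPKM in gelADSC libraries 2 and 3, against 5.02 and 4.82 FPKM in control libraries 1 and 3. The control values lay between those of the gelADSC libraries. The log2 change was -0.49 (SE 0.43, 95% interval -1.48 to 0.51, limma adjusted p = 0.432). It was 0.30 without gelADSC library 3 (adjusted p = 0.608) and -1.28 without gelADSC library 2 (adjusted p = 0.00259), so that its direction depended on which gelADSC library was kept. Summed with Cxcl11, the Cxcr3 ligands reached 14.3 and 3.13 FPKM in gelADSC libraries 2 and 3 and 5.56 and 5.92 FPKM in control libraries 1 and 3.

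Ccl5, also called RANTES, is made by T cells and NK cells among others and binds Ccr1. It had 6.87 FPKM (89 reads) and 1.96 FPKM (21 reads) in gelADSC libraries 2 and 3, against 0.283 and 0.416 FPKM (3 and 4 reads) in control libraries 1 and 3. Both gelADSC libraries were above the controls, and library 2 was again the higher. The mean was 4.42 ± 3.47 FPKM in gelADSC and 0.350 ± 0.0937 FPKM in control (SD, n = 2 each), 12.6-fold higher, with a log2 change of 1.84 (SE 0.41, limma adjusted p = 0.0149). By counting error alone the 21 reads of gelADSC library 3 allow 1.22 to 3.0 FPKM and the 4 reads of control library 3 allow 0.113 to 1.07 FPKM (exact Poisson intervals at 95%). The adjusted p was 0.172 and 0.0853 when control library 1 or 3 was left out, 0.0661 after median ratio scaling, 0.0755 after quantile normalization and 0.0885 if no filter was applied.

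Ccl4, an attractant of monocytes and T cells, was close to the limit of this depth. It had 0.559 and 0.150 FPKM in gelADSC libraries 2 and 3, from 9 and 2 reads, against 0.532 and 1.09 FPKM in control libraries 1 and 3, from 7 and 13 reads. The groups overlapped, and a difference was not detectable at this depth. With no filter its log2 change was -0.42 (limma adjusted p = 0.282).

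Ccl9, a ligand of Ccr1 made by macrophages and other myeloid cells, had 12.8 and 27.2 FPKM in gelADSC libraries 2 and 3, against 11.9 and 14.6 FPKM in control libraries 1 and 3. In gelADSC library 3 it was the most abundant of the 10, above Cxcl1, while gelADSC library 2 lay between the controls. The log2 change was 0.47 (SE 0.32, 95% interval -0.26 to 1.2, limma adjusted p = 0.298). Without gelADSC library 2 it was 0.99 (adjusted p = 0.0230) and without gelADSC library 3 it was -0.043 (adjusted p = 0.946).

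Cxcl16 is made as a membrane protein that is shed from the cell surface and binds Cxcr6. It had 5.16 and 3.04 FPKM in gelADSC libraries 2 and 3, against 4.88 and 3.97 FPKM in control libraries 1 and 3. The groups overlapped, with a log2 change of -0.12 (SE 0.26, 95% interval -0.70 to 0.47, limma adjusted p = 0.767). Median ratio scaling gave 0.12 and quantile normalization gave 0.066. Of the 9 tested chemokines it had the smallest log2 change.

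**Figure D2:**
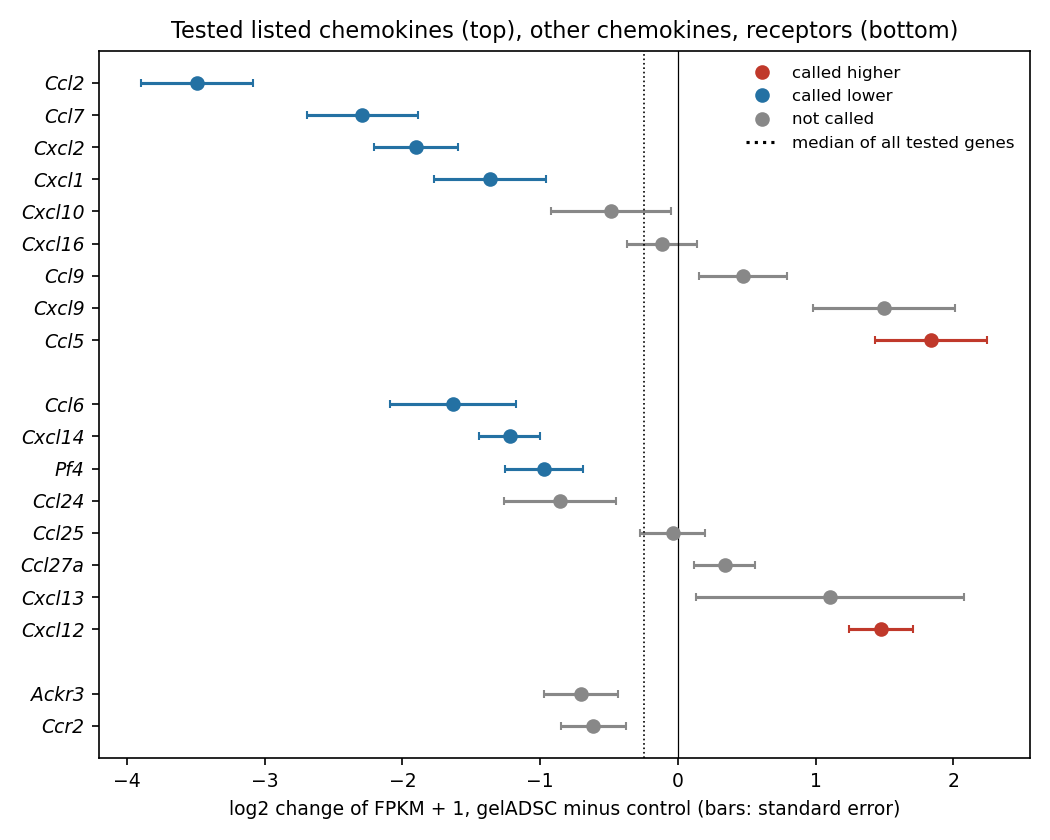
Log2 change, gelADSC minus control, with its SE on the horizontal axis for the tested listed chemokines (top block), the other tested chemokines (middle block) and the receptors Ackr3 and Ccr2 (bottom block). Colours mark the limma call, and the dotted line is the median of all tested genes at -0.25; Ccl2 lies furthest to the left and Ccl5 furthest to the right.

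Together the 10 chemokines summed to 99.0 and 57.5 FPKM in gelADSC libraries 2 and 3, against 186 and 133 FPKM in control libraries 1 and 3. Ccl2 made up 3.75% and 1.28% of that sum in gelADSC libraries 2 and 3, against 18.4% and 21.3% in control libraries 1 and 3. Cxcl1 made up 55.5% and 37.3% in gelADSC, against 61.8% and 53.1% in control. Ccl9 held 12.9% and 47.3% in gelADSC libraries 2 and 3, against 6.41% and 11.0% in control libraries 1 and 3. Of the 9 tested chemokines, 2 were higher in both gelADSC libraries than in both controls (Ccl5 and Cxcl9) and 4 were lower. Over all tested genes the corresponding shares were 19.2% and 50.5%.

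On the log2(FPKM + 1) scale the gap within the gelADSC group exceeded that within the control group for 8 of the 10 chemokines, with Cxcl2 and Ccl4 as the exceptions. On the FPKM scale the SD was larger in control also for Ccl2, Ccl7 and Cxcl1. Of the 10 chemokines 8 were higher in gelADSC library 2 than in library 3, while over all tested genes 33.1% were. The difference, library 3 minus library 2 on the log2(FPKM + 1) scale, was -1.83 for Cxcl9, -1.58 for Cxcl10, -1.44 for Ccl2, -1.41 for Ccl5, -1.34 for Ccl7 and -1.32 for Cxcl1. Ccl9 went the other way, by 1.03, and Cxcl2 differed by 0.028. The median over the 9 tested chemokines was -1.34, against 0.10 over all tested genes. Between the control libraries, library 3 minus library 1, the median was -0.24 over the 9 and -0.21 over all tested genes. With a single library on each side these differences have no test.

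**Figure D3:**
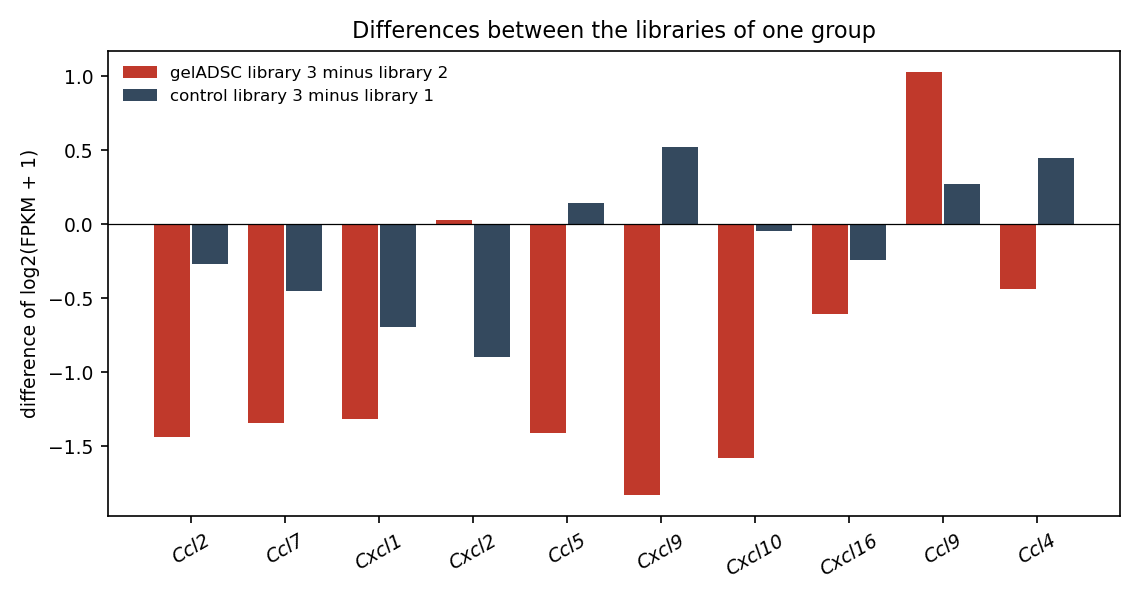
Difference between the libraries of a group on the log2(FPKM + 1) scale for each of the 10 chemokines, in red gelADSC library 3 minus library 2 and in dark blue control library 3 minus library 1. The red bars reach -1.83 for Cxcl9 and 1.03 for Ccl9; the blue bars stay between -0.89 for Cxcl2 and 0.52 for Cxcl9.

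Leukocyte markers also moved between these libraries. The 11 monocyte and macrophage markers summed to 238 and 78.4 FPKM in gelADSC libraries 2 and 3, against 250 and 259 FPKM in control libraries 1 and 3, and all 11 were higher in gelADSC library 2 than in library 3. Of these 11, 3 fell in gelADSC (Cd68, Chil3 and F13a1) and 0 rose, by limma and by voom, and none was at 0 in every library. Without gelADSC library 2, 9 of the 11 fell and 0 rose, without gelADSC library 3, 3 fell and 1 rose (Lyz2, lysozyme), and without control library 1, 2 fell and 0 rose, the adjusted p of F13a1 being 0.0534. The 12 Kupffer cell markers summed to 436 and 286 FPKM in gelADSC, against 346 and 410 FPKM in control. Their median log2 change was -0.027, and at an unadjusted limma p under 0.05 the counts were 2 lower and 2 higher. After adjustment 1 of them fell (Cd163) and 0 rose. That call held under 4 of 10 alternatives, and leaving out any library ended it (adjusted p 0.0714 to 0.274). The 9 neutrophil markers analysed summed to 73.7 and 26.1 FPKM in gelADSC, against 74.1 and 67.6 FPKM in control, and of the 4 that were tested 1 fell (Retnlg), a call that ended without control library 1 (adjusted p = 0.0676). The 11 T cell and NK cell markers were all below the filter and summed to 2.05 and 1.87 FPKM in gelADSC libraries 2 and 3, against 0.533 and 0.539 FPKM in control libraries 1 and 3. These sums rested on 74 and 48 reads in gelADSC and 20 and 19 reads in control. Groups did not overlap for 8 of these 11 that were higher in gelADSC and 1 that was lower (Prf1, perforin). With no filter limma called 0 of the 11. Among all tested genes, which leave out these low markers, 19.2% were higher and 50.5% lower without overlap. The 5 adipose stromal cell markers summed to 38.7 and 19.8 FPKM in gelADSC, against 56.2 and 38.4 FPKM in control. Of the 4 that were tested 1 fell (Nt5e) and 0 rose, and the Nt5e call held under 6 of 10 alternatives. Cd34 lay the other way and was not called (log2 change 0.65, limma adjusted p = 0.162). For comparison, limma called 17.5% of all tested genes lower and 6.92% higher. The part of these cell types in the chemokine levels was not tested.

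Among 27 other chemokine genes 8 were tested, of which 1 rose and 3 fell, with a median log2 change of -0.45. The shares over all tested genes were 6.92% called higher and 17.5% called lower. Cxcl12, the ligand of Cxcr4 made by stromal cells and endothelium, rose to 63.3 ± 18.4 FPKM in gelADSC, against 21.7 ± 0.625 FPKM in control (SD, n = 2 each), with a log2 change of 1.48 (SE 0.23) and a limma adjusted p of 0.00338. Without control library 1 its adjusted p was 0.0712. Ccl6, a ligand of Ccr1, had 32.5 and 9.12 FPKM in gelADSC libraries 2 and 3, against 56.2 and 55.9 FPKM in control libraries 1 and 3, a log2 change of -1.63 (SE 0.46, adjusted p = 0.0342). Cxcl14 and Pf4 (platelet factor 4) fell with log2 changes of -1.22 and -0.97. The call of Ccl6 held under 4 of 10 alternatives, that of Pf4 under 3 and that of Cxcl14 under 8. Without control library 1 the adjusted p was 0.247 for Ccl6 and 0.226 for Pf4, without control library 3 it was 0.161 for Ccl6, and without gelADSC library 3 it was 0.0621 for Ccl6 and 0.0932 for Pf4. Cxcl13 and Ccl25 were the most abundant tested chemokines that were not called, with log2 changes of 1.10 (adjusted p = 0.425) and -0.037 (adjusted p = 0.922). Ccl1, Ccl21a and Cxcl15 were listed at 0 in every library.

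Receptors were low throughout, and 3 of 23 were tested. By limma 0 of these were called, and 2 had an unadjusted p under 0.05, both lower. By voom 0 were called. Over all 23, most of them below the filter, groups did not overlap for 9 that were higher in gelADSC and 7 that were lower. Among all tested genes 19.2% were higher and 50.5% lower without overlap. Cx3cr1 had 118 and 64 reads in gelADSC, against 21 and 19 in control. With no filter it was not called (log2 change 0.68, limma adjusted p = 0.0568). Ccr2, the receptor of Ccl2 and Ccl7, had 1.13 and 0.747 FPKM in gelADSC libraries 2 and 3, against 1.71 and 2.22 FPKM in control libraries 1 and 3, a log2 change of -0.61 (SE 0.24) with a limma adjusted p of 0.0899. Ackr3, an atypical receptor of Cxcl12, had a log2 change of -0.70 (SE 0.27, adjusted p = 0.0873). Cxcr2, the receptor of Cxcl1 and Cxcl2, had 0.566 and 0.163 FPKM in gelADSC (21 and 5 reads), against 0.759 and 0.762 FPKM in control (23 and 21 reads). Cxcr3, the receptor of Cxcl9 and Cxcl10, had 0.331 and 0.154 FPKM in gelADSC (13 and 5 reads), against 0.125 and 0.103 FPKM in control (4 and 3 reads). Both were below the filter, and with no filter neither was called (limma adjusted p = 0.204 for Cxcr2 and 0.279 for Cxcr3). Ccr4 and Ccr8 were listed at 0 in every library.

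Most of the tested NF-kB proteins and feedback genes fell in gelADSC. Of 14 tested, 10 fell and 0 rose, by limma and by voom, with a median log2 change of -0.78, and at an unadjusted p under 0.05 the counts were 12 lower and 0 higher. Over all tested genes limma called 17.5% lower and 6.92% higher, and the median log2 change was -0.25. Nfkb2, the p100 precursor, fell to 3.50 FPKM in gelADSC, against 13.7 FPKM in control as means of 2 libraries each, a log2 change of -1.67 (SE 0.27) with a limma adjusted p of 0.00398. Relb, a subunit that pairs with it, fell by 1.44 on the log2 scale, Tnfaip3 (A20, a feedback inhibitor) by 1.42, Tnip1 (a partner of A20) by 1.29, Vcam1 (a leukocyte adhesion molecule) by 0.99 and Birc3 by 0.87. Icam1 and Nfkb1 were not called, with adjusted p-values of 0.269 and 0.0889. Rel, the c-Rel subunit, was below the filter and lay the other way, with 0.952 and 1.11 FPKM in gelADSC, against 0.408 and 0.513 FPKM in control, and was not called with no filter (log2 change 0.48, adjusted p = 0.0798). The number that fell was 2 with median ratio scaling (median log2 change -0.50), 2 with quantile normalization (-0.47) and 1 with no filter. Over all tested genes 1936 of 11070 were called lower as reported, 948 and 1000 with these scalings, and 730 of 17563 with no filter. Leaving out any library also gave fewer calls, and the fewest of all settings came without control library 1, so that the calls of this list depended on that library. The list medians were -0.62 and -0.90 without control library 1 or 3. These medians were -0.94 and -0.68 without gelADSC library 2 or 3.

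Of 11 tested genes for inflammatory inducers and their receptors 3 fell and 1 rose, with a median log2 change of -0.41. Limma called 17.5% of all tested genes lower and 6.92% higher. Cd14, a co-receptor for bacterial lipopolysaccharide, had 4.19 and 1.58 FPKM in gelADSC libraries 2 and 3, against 69.6 and 37.5 FPKM in control libraries 1 and 3, a log2 change of -3.83 (SE 0.37) with a limma adjusted p of 0.000476, and was called under all 10 alternatives. Il1r1, the receptor of interleukin 1, fell by 1.14 and Tnfrsf1a, a receptor of tumour necrosis factor, by 0.72 on the log2 scale, while Il1rap, the accessory chain of the interleukin 1 receptor, rose by 1.37. Without control library 1 the adjusted p was 0.0591 for Il1r1 and 0.134 for Tnfrsf1a, and for Tnfrsf1a it was 0.116 without gelADSC library 2 and 0.0534 without gelADSC library 3. The Tnfrsf1a call also ended after median ratio scaling (0.0763), after quantile normalization (0.0551) and if no filter was applied (0.0521), and held under 4 of 10 alternatives. Myd88 and Tnfrsf1b were not called (adjusted p = 0.0605 and 0.152). The 3 genes that fell are receptors or a co-receptor. Tnf had 0.446 and 0.0601 FPKM in gelADSC, against 0.607 and 0.601 FPKM in control, below the filter, and was not called with no filter (limma adjusted p = 0.208). The tested cytokines Il1a, Il1b, Il18 and Il33 were not called (limma adjusted p = 0.348, 0.321, 0.393 and 0.611). Il1a had 211 and 83 reads in gelADSC libraries 2 and 3, against 71 and 87 in control libraries 1 and 3. For Il1b these were 114 and 37, against 32 and 39.

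Of 20 tested genes of the interferon pathway 2 fell, Ifngr1 (a chain of the interferon gamma receptor) and Gbp2 (a guanylate-binding protein), and 0 rose by limma or by voom. At an unadjusted p under 0.05 the counts were 3 lower and 0 higher. Groups did not overlap for 6 of the 20, all lower in gelADSC. Over all tested genes 50.5% were lower and 19.2% higher without overlap, and limma called 17.5% lower and 6.92% higher. The median log2 change of the 20 was -0.12, and its sign turned with median ratio scaling (0.11) and quantile normalization (0.074). Iigp1 and Irgm1, the most abundant of those not called, had log2 changes of -0.42 and 0.028. Ifng, interferon gamma itself, was listed at 0 in every library. Of the 23 genes 20 were higher in gelADSC library 2 than in library 3. The number that fell was 0 without control library 1, with either scaling and with no filter, and 4 without gelADSC library 2; without gelADSC library 3, 2 rose and 1 fell.

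Of 10 tested genes that shed or cleave chemokines or turn over their transcripts 1 fell and 0 rose by limma, and by voom 2 fell and 0 rose. At an unadjusted p under 0.05 the counts were 4 lower and 1 higher. The shares called by limma over all tested genes were 17.5% lower and 6.92% higher. Mmp14, a membrane-bound metalloprotease, fell by 1.08 on the log2 scale (SE 0.19, limma adjusted p = 0.00630), and without control library 1 its adjusted p was 0.0679. Zfp36l1 and Zfp36, which bind AU-rich elements and destabilise transcripts, were not called (log2 changes -0.36 and -0.58, adjusted p = 0.230 and 0.0601). Adam10, a protease that sheds Cxcl16, had 8.23 and 8.86 FPKM in gelADSC, against 14.1 and 12.9 FPKM in control (log2 change -0.61, adjusted p = 0.0501).

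**Figure D4:**
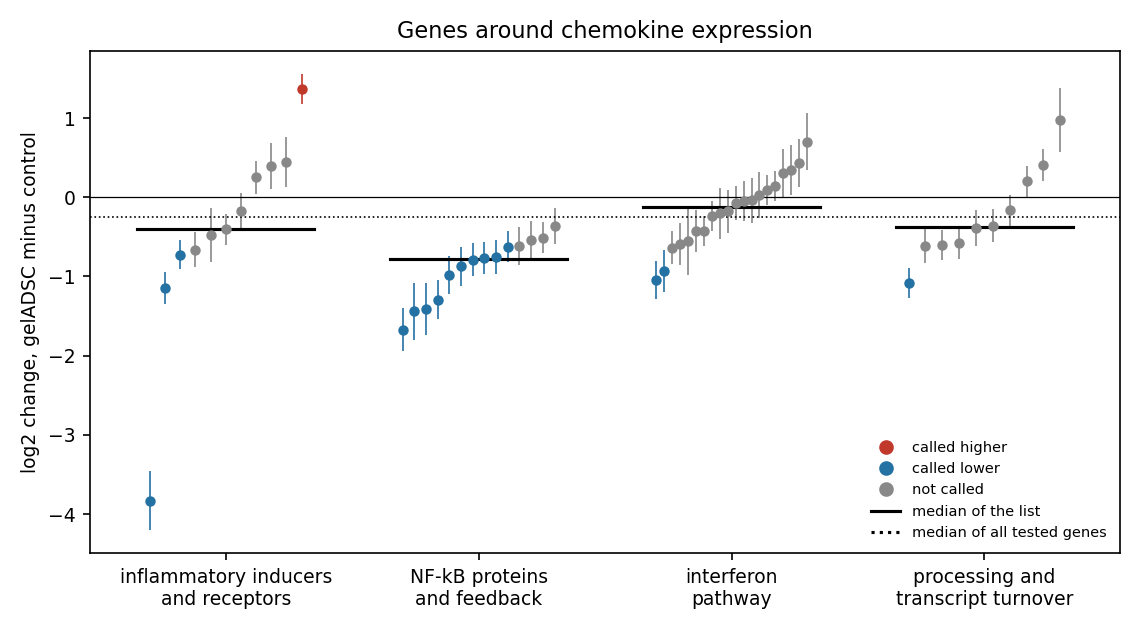
Log2 change, gelADSC minus control, with SE for every tested gene of 4 companion lists on the vertical axis, coloured by the limma call. Solid bars are list medians and the dotted line is the median of all tested genes at -0.25; the NF-kB list has its median at -0.78, the interferon pathway at -0.12, and Cd14 is the point at -3.83.

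**Figure D5:**
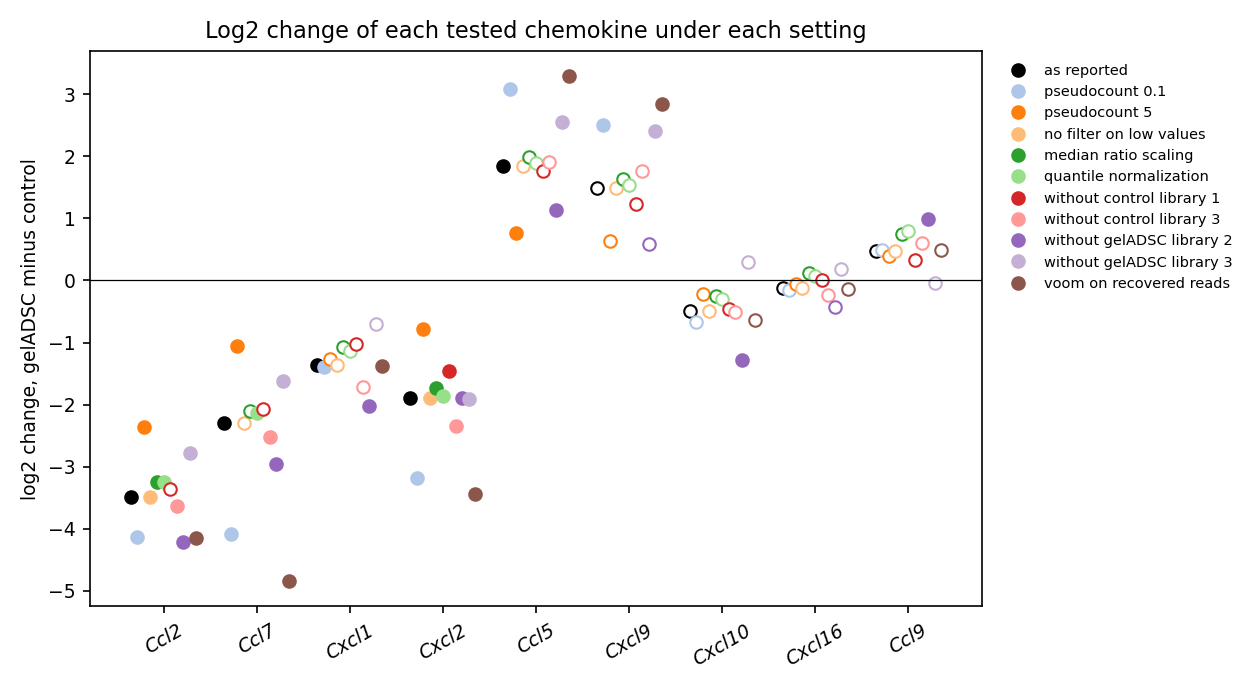
Log2 change of the 9 tested chemokines on the vertical axis under the reported setting and each of 10 alternatives, with filled points where the limma adjusted p was under 0.05. All 11 points are filled for Cxcl2, and Cxcl10, Cxcl16 and Ccl9 have points on both sides of 0.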

How the data were processed

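Liver RNA of 4 samples was isolated by RNeasy Mini columns and made into stranded TruSeq mRNA libraries, per the labels' protocols. The deposited values were taken as FPKM: the header names no unit, but Cufflinks 2.2.1 is named per the submitters' processing notes, with Trimmomatic 0.38 and TopHat2 2.1.1. These notes name build hg19, which cannot serve mouse symbols, so the build of the table is unknown. Columns number the libraries 1 and 3 (control) and 2 and 3 (gelADSC), unlike the sample titles, and no number was used to pair them.

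Whole reads were recovered by finding, per gene, the step of which all 4 values are multiples (relative tolerance 1e-07), for 11054 of 11070 tested genes. A two-sided limma-trend fit (limma 3.58.1 in R 4.3.3) was run on log2(FPKM + 1) of genes averaging at least 1 FPKM, with Benjamini-Hochberg adjustment over that table. The fit was tried on simulated data with normal errors and equal spread in both groups. That trial does not cover the unequal spread of these libraries and bears on no call given here. Alternatives were a pseudocount of 0.1 or 5, no filter, median ratio scaling, quantile normalization, leaving out each library and, added after seeing the data, limma-voom on the recovered reads. Intervals and floors cover counting error only.

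The members and the lists were chosen with earlier results of these data known. All 10 members are named, and of each list up to 6 called genes by size of change and the 2 most abundant uncalled. Ccr2, Cxcr2, Cxcr3, Cx3cr1, Ccl12, Cxcl3, Cxcl5, Ppbp, Xcl1 and Rel were named after their values were seen. So were Lyz2, Tnf, Il1a, Il1b, Il18, Il33, Ifng, Adam10, Cd34 and the called cell markers. Ly6g was not analysed here, and a receptor the rule would name is not reported here. Protein sequences were not used here.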

Additional observations from a re-analysis of the deposited data

How the results depend on the processing

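The reported counts were 1 listed chemokine higher, 4 lower, 4 other chemokines called, 0 receptors and 17 companion pathway genes. The count of listed chemokines higher was 2 with a pseudocount of 0.1 and by voom on the recovered reads, and 0 with no filter or either scaling (median ratio, quantile). The count lower was 2 with no filter and with median ratio scaling. Other chemokines called numbered 1 after median ratio scaling and 2 after quantile normalization, and companion genes 5 with no filter and 6 with either scaling. Calls also changed over the whole table, where 1936 of 11070 genes were called lower and 766 higher as reported. These were 948 and 952 with median ratio scaling, and 1000 and 931 with quantile normalization. With no filter 730 of 17563 genes were called lower and 525 higher. Leaving out each library in turn gave 0 to 2 listed chemokines higher, 1 to 5 lower, 1 to 5 other chemokines, 0 to 1 receptors and 3 to 18 companion genes. The lowest count lower, 1, came without control library 1 and the highest, 5, without gelADSC library 2. Each such fit takes its spread from the group that keeps 2 libraries and assumes that the lone library varies like it. Over the 10 alternatives Cxcl2 was called in 10, Ccl2 in 9, Ccl7 in 7, Ccl5 in 5 and Cxcl1 in 3, with the direction kept in each. The log2 change turned sign for Ccl9 (-0.043) and Cxcl10 (0.30) without gelADSC library 3, and for Cxcl16 after median ratio scaling (0.12), after quantile normalization (0.066), without control library 1 (0.0050) and without gelADSC library 3 (0.19). Leaving out each library in turn gave -0.043 to 0.99 for Ccl9, -1.28 to 0.30 for Cxcl10 and -0.42 to 0.19 for Cxcl16. The cause was not tested. No paired analysis was possible because the columns of the groups share fewer than 2 numbers, so the planned replicate block was not run. Depth limits Ccl4, with 2 to 13 reads, and the controls of Ccl5, with 3 and 4.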

Other observations

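Cxcl13, the B cell attractant, had 14.6 and 0.171 FPKM in gelADSC libraries 2 and 3, against 1.86 and 0.38 FPKM in control libraries 1 and 3, so that its high value lay in gelADSC library 2 alone. The 4 B cell markers, all below the filter, summed to 1.49 and 2.27 FPKM in gelADSC libraries 2 and 3, against 0.145 and 0.152 FPKM in control libraries 1 and 3. For all 4 the groups did not overlap, with gelADSC higher, from 58 and 69 summed reads in gelADSC and 5 and 4 in control. Among all tested genes, which leave out these low markers, 19.2% were higher without overlap. Xcl1, a chemokine of T cells and NK cells, had 0.245 and 0.198 FPKM in gelADSC, while both controls were listed at 0. The B cell markers and Xcl1 were too low for the reported fit. With no filter, limma called Xcl1 higher (adjusted p = 0.0317), from 3 and 2 reads in gelADSC and 0 in control, at or under the floor of 3 reads, and 3 of the 4 B cell markers higher, and Cxcl13 was not called (adjusted p = 0.613).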
